A study of Homo sapiens with 9 samples.

Results

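The *BCL2* family genes decide at the outer mitochondrial membrane whether a stressed cell releases cytochrome c and activates its caspases. Pro-survival members (*BCL2*, *BCL2L1*, *MCL1*) hold the pore-forming members (*BAX*, *BAK1*) in check, and BH3-only members (*BCL2L11*, *BBC3*, *PMAIP1*, *BID*, *BAD*) act upstream by binding the pro-survival proteins and, for some, by switching on *BAX* and *BAK1* directly. In lung cancers driven by receptor kinases, *BCL2L11*, which encodes BIM, is the best known mediator of cell death after kinase inhibition, and *MCL1* and *BCL2L1* are known for blocking it. These 10 genes were found by their symbols in a table of raw read counts of 26364 gene names, and their transcript levels were followed in all 9 RNA-seq libraries.

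The libraries came from A549, an established human lung adenocarcinoma line. The 2 A549 libraries are labelled as wild type. The 2 LA libraries came from A549 cells carrying the intergenic *LOC388942-ALK* fusion, which had been made by CRISPR editing in A549 cells with Cas9. The 3 LA sgScr libraries came from these fusion cells with a scramble guide, and the 2 LA sgFOS libraries from fusion cells with guides against *FOS*, a subunit of the AP-1 transcription factor. The study's methods describe the fusion lines as monoclonal, so that the clone and the fusion cannot be told apart in a comparison with A549 and the labels do not say whether the A549 libraries carry Cas9. The labels do not give which *FOS* guide was used in which library, nor whether replicates came from separate cultures, and p-values therefore measure only the spread between these libraries, which may be technical. Since whole cultures were sequenced, fewer cells with a transcript and less of it per cell cannot be told apart.

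Total counts ranged from 14507228 to 20456341 per library. *FOS*, the targeted gene, read 10.8 and 9.14 counts-per-million (CPM, on library sizes scaled by the trimmed mean of M-values, TMM) in A549, 334.5 and 92.7 in LA, 199.7, 196.2 and 202.6 in LA sgScr, and 68.3 and 74.1 in LA sgFOS, so every LA sgFOS library lay below every LA sgScr library. *ALK* had 0 and 0 raw counts in A549, 2 and 15 in LA, 4, 1 and 3 in LA sgScr, and 2 and 0 in LA sgFOS, which is too few for a test. The epithelial markers *KRT7*, *KRT8* and *KRT18* had at least 27312 counts in every library, all 6 epithelial markers listed had at least 10 counts in every library, and the leukocyte markers *PTPRC* and *CD3E* had 0 counts throughout. The remaining markers listed for other cell types stayed low, with a summed level of at most 42.6 CPM for 4 immune markers (all of it from *CD14*), 1.06 CPM for 3 endothelial markers and 17.5 CPM for 3 fibroblast markers (nearly all from *COL1A1*). The summed level of the 6 epithelial markers was 13570 to 24650 CPM in A549 and 6967 to 12950 CPM in the 7 fusion libraries. Nearly all of it came from *KRT7*, *KRT8* and *KRT18*. Against A549, *CDH1* went the other way, with log2 fold changes of 2.28 in LA and 1.79 in LA sgScr, and *EPCAM* was at -0.84 and 0.745. The median over the 6 was -0.77 and -0.69, and -0.02 and 0.44 with length and GC trends removed. The part of these markers in the members' differences was not tested.

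Replicates were far apart in the first 2 groups and close in the others. The chi-square per degree of freedom over genes was 125.4 between the 2 A549 libraries and 58.1 between the 2 LA libraries, against 1.76 to 2.65 among the LA sgScr libraries and 1.74 between the LA sgFOS libraries. The log2 difference between A549 replicates 1 and 2 went with the GC content of the transcript across 13539 genes (Spearman correlation 0.651) and against its length (-0.315). Between LA replicates 1 and 2 the corresponding values over 13742 genes were -0.435 and 0.039. Genes share their libraries and are not independent replicates, so these values describe the libraries only. Their part in the differences of single members was not tested, and each comparison below is therefore also given with length and GC trends removed.

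On GRCh37, with positions from GENCODE, the pro-survival genes are *BCL2* at chr18:60790579-60987361 on the minus strand, *BCL2L1* at chr20:30252255-30311792 on the minus strand and *MCL1* at chr1:150533371-150552214 on the minus strand. The pore-forming genes are *BAX* at chr19:49458072-49465055 on the plus strand and *BAK1* at chr6:33540324-33548070 on the minus strand. The BH3-only genes are *BCL2L11* at chr2:111876955-111926021 on the plus strand, *BBC3* at chr19:47724079-47736023 on the minus strand, *PMAIP1* at chr18:57567228-57571537 on the plus strand, *BID* at chr22:18216904-18257536 on the minus strand and *BAD* at chr11:64037302-64052176 on the minus strand. Their longest transcripts range from 1157 bases for *BAD* to 7461 bases for *BCL2*, and the GC content of these transcripts from 36.7% for *PMAIP1* to 69.7% for *BBC3*. *BAD* overlaps *GPR137* on the opposite strand, a gene with up to 1268 counts in a library, and *BCL2L11* overlaps *MIR4435-2HG* on the opposite strand, with up to 805 counts. Overlaps with opposite-strand genes of at most 148 counts hold for *BCL2L1* (*ABALON*) and *MCL1* (*ADAMTSL4*). The strand setting of the counting is not given in the sources used here, so reads of these pairs may have been split between them. *BAK1* has pseudogenes on other chromosomes, *BAK1P1* and *BAK1P2*, which are not rows of the table used here, and reads shared with them make its counts uncertain.

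Because 6 members moved together in the cells with *FOS* guides, the 250 bases before the start site and the 50 bases after it were searched for the AP-1 motif (TGACTCA or TGAGTCA) and the related cyclic AMP response element (TGACGTCA), on both strands. RefSeq's promoter table on GRCh38.p14 held 9 of the 10 members and not *MCL1*. The 250 bases before the start site are shown 5′ to 3′ on the gene's strand for *BBC3*, the one member with a match, and for *BAX*, the member with the smallest adjusted p in that comparison, with the match in capitals.
*BBC3*, chr19:47232668-47232917, minus strand.
BBC3: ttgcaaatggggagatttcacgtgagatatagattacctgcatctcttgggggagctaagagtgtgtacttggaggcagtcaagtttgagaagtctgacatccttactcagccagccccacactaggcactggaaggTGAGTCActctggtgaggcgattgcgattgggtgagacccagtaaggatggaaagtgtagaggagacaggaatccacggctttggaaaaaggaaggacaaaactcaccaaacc
*BAX*, chr19:48954625-48954874, plus strand.
BAX: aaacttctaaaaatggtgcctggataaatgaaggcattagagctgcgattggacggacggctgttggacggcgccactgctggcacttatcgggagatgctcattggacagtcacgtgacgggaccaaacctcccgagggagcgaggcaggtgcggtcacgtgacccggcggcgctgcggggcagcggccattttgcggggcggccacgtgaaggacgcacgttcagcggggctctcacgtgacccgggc
The *BBC3* match is TGAGTCA at positions -113 to -107 from the start site, and AP-1 motifs were found in 4.95% of 35116 promoter windows of the same length. No member had a cyclic AMP response element, which 1.85% of windows held. These letters describe the windows and are not evidence of binding.

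Before any comparison, the members can be ordered by their level per kilobase, that is CPM divided by the length of the union of exons. *BCL2* was the lowest of the 10 in every group, at 0.118 ± 0.028 CPM per kilobase in A549 (mean ± SD, n = 2), 0.168 ± 0.024 in LA (n = 2), 0.163 ± 0.039 in LA sgScr (n = 3) and 0.0824 ± 0.0178 in LA sgFOS (n = 2). Its raw counts were only 13 to 54 per library, so the precision of every *BCL2* value is low. *BCL2L11* and *BBC3* took ranks 8 and 9 in every group, except that *BBC3* came 1 rank above *PMAIP1* in A549 and LA sgFOS where the longest transcript was used, and in A549 the ranges of *PMAIP1* and *BBC3* overlapped. At the upper end, *BAX* led in A549 with 117.3 ± 74.6 CPM per kilobase, followed by *BAD* with 74.3 ± 52.1 and *BCL2L1* with 49.9 ± 23.7, and the ranges of neighbours among these 3 overlapped. In LA, *BCL2L1* (48.8 ± 22.3), *BAX* (43.99 ± 5.1) and *MCL1* (38.2 ± 11.6) led, again with overlapping ranges, and *BAX* came first where the longest transcript was used as the length. In LA sgScr the order *BAX*, *MCL1*, *BCL2L1*, *BAD* held without overlap between neighbours, at 53.2 ± 1.2, 45.4 ± 1.5, 28.4 ± 0.3 and 13.6 ± 1.2. The same 4 genes led in LA sgFOS without overlap, at 73.1 ± 1.8, 44.9 ± 0.1, 37.0 ± 1.8 and 16.7 ± 0.6. In LA sgFOS *BAK1*, *BID* and *PMAIP1* followed in this order without overlap, with *BID* above *BAK1* where the longest transcript was used. In LA sgScr the order was *BID*, *BAK1* and *PMAIP1*. There *BID* and *BAK1*, and *BAK1* and *PMAIP1*, did not differ beyond the spread of the libraries.

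The first comparison asks what changed between A549 and the fusion cells. *MCL1* and *BCL2L11* were higher and *BAX* and *BAD* lower in LA, so that 4 of the 10 members were called, which here means an adjusted p below 0.05 (edgeR, quasi-likelihood, Benjamini-Hochberg over every gene tested). Of all 14425 genes tested, 9.57% were called higher and 9.94% lower, against 2 members in each direction. Groups did not overlap for 8 of the 10 members, where 63.8% of all genes showed none, and 6 members passed the study's own kind of threshold (unadjusted p under 0.05 and an absolute log2 fold change over 0.5), which 34.5% of genes passed. The median log2 fold change was -0.06 over the members and 0.04 over all genes.

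Of the pro-survival members, *MCL1*, which encodes a short-lived protein that binds BIM and BAK, read 83.5 and 110.6 CPM in A549 and 288.9 and 186.6 in LA. Both LA libraries were above both A549 libraries, and *MCL1* rose by a log2 fold change of 1.27 (SE 0.42, adjusted p = 0.034 in edgeR's test), and this call was lost without A549 replicate 1 (1.03, adjusted p = 0.11). *BCL2L1*, which encodes BCL-XL, read 280.0 and 139.3 CPM in A549 and 138.5 and 271.1 in LA, and the groups overlapped (log2 fold change -0.06, SE 0.44, adjusted p = 0.95). *BCL2* read 1.74 and 1.24 CPM in A549 and 2.33 and 1.90 in LA, with a log2 fold change of 0.48 (SE 0.70, adjusted p = 0.67). Hence the called change among the pro-survival members was in *MCL1*.

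Of the pore-forming members, *BAX* read 440.0 and 167.1 CPM in A549 and 104.5 and 123.1 in LA. The lower A549 library was closer to the LA libraries than to the other A549 library. *BAX* fell by 1.43 on the log2 scale (SE 0.45, adjusted p = 0.028), and the difference was -0.63 without A549 replicate 1 (adjusted p = 0.26). *BAK1* read 16.2 and 23.1 CPM in A549 and 19.1 and 19.0 in LA, so the LA libraries lay between the A549 libraries (log2 fold change -0.07, SE 0.43, adjusted p = 0.93).

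Of the BH3-only members, *BCL2L11* read 6.27 and 14.3 CPM in A549 and 33.9 and 24.9 in LA. Both LA libraries were higher, and *BCL2L11* rose by a log2 fold change of 1.48 (SE 0.47, adjusted p = 0.030), a call that was lost without A549 replicate 1 (0.97, adjusted p = 0.15). *BAD*, whose protein is held inactive by phosphorylation and 14-3-3 binding, read 189.7 and 64.0 CPM in A549 and 19.7 and 26.1 in LA. It fell by 2.48 on the log2 scale (SE 0.47, adjusted p = 0.0016), the largest difference among the 10 members in this comparison, and by 1.56 without A549 replicate 1 (adjusted p = 0.018). *BBC3*, which encodes PUMA, read 18.1 and 14.7 CPM in A549 and 6.999 and 7.32 in LA. These groups did not overlap, yet the difference of -1.22 (SE 0.46) missed the threshold at an adjusted p of 0.066. *BID*, which caspase 8 cleaves into its active form, read 72.6 and 82.7 CPM against 46.5 and 37.9, a log2 fold change of -0.90 (SE 0.40, adjusted p = 0.11). *PMAIP1*, which encodes NOXA, read 10.1 and 16.8 CPM against 21.6 and 20.05, a log2 fold change of 0.60 (SE 0.45, adjusted p = 0.35). The BH3-only members thus differed in both directions.

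**Figure D1:**
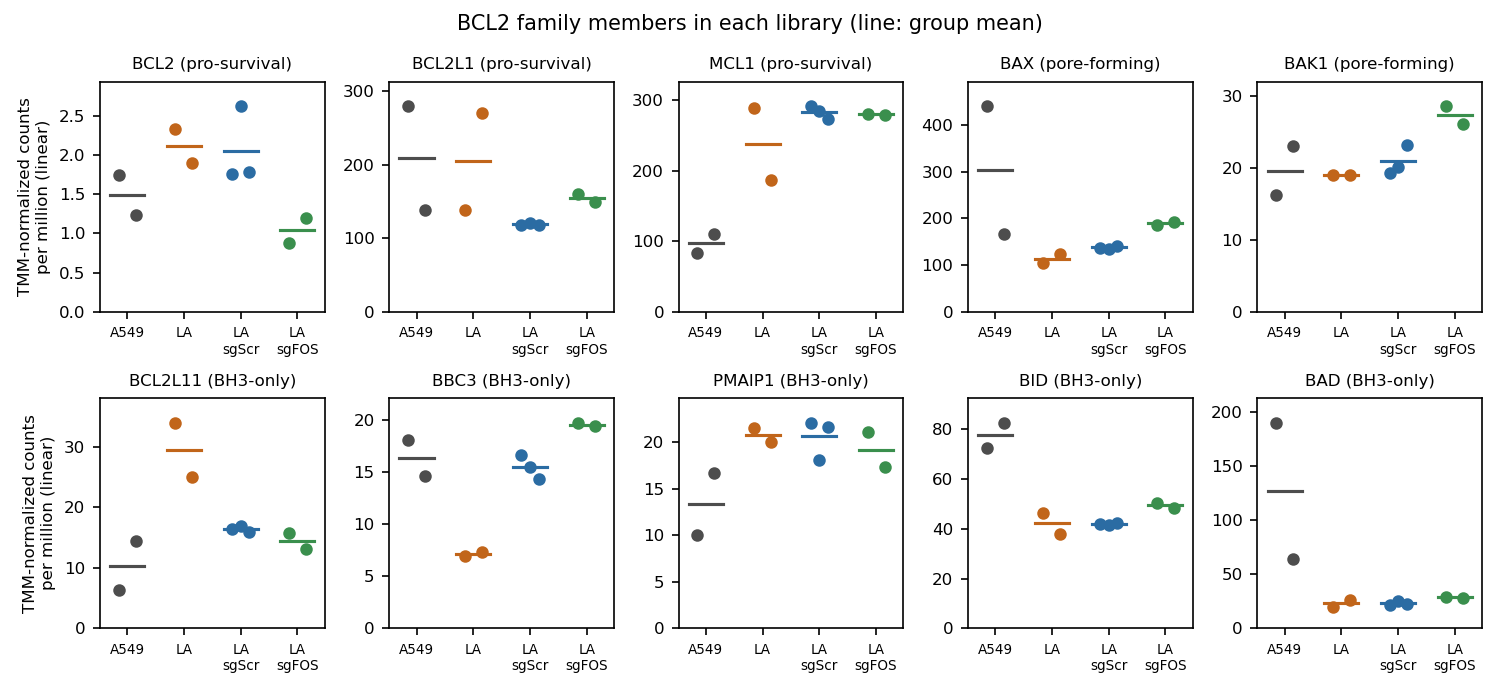
TMM-normalized CPM of each member (vertical axes, linear, starting at 0) in the 2 A549, 2 LA, 3 LA sgScr and 2 LA sgFOS libraries, 1 point per library with a line at the group mean. The A549 libraries lie far apart for *BAX* (440.0 and 167.1) and *BAD* (189.7 and 64.0), while the LA sgScr libraries lie close together for both.

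In this comparison long transcripts read higher and short ones lower. The Spearman correlation of the log2 fold change with transcript length was 0.523 over the 13966 genes with a length, and that with GC content was -0.295. Of the 4 members called, the 2 lower ones, *BAD* (1157 bases) and *BAX* (1358 bases), are the shortest of the 10, and the 2 higher ones, *BCL2L11* (5171 bases) and *MCL1* (4550 bases), are the longest after *BCL2*. The other 6 were not in the order of their lengths, with *PMAIP1* (1899 bases) at 0.60, *BID* (2495 bases) at -0.90 and *BCL2* (7461 bases) at 0.48. With smooth trends on length and GC content removed, 0 of the 10 members were called, with 4 at an unadjusted p under 0.05, and of all genes 834 were called higher and 915 lower. The corrected difference was 0.94 for *MCL1* (adjusted p = 0.051 in edgeR's test), 1.11 for *BCL2L11* (adjusted p = 0.076), -0.89 for *BAD* (adjusted p = 0.056) and -0.20 for *BAX* (adjusted p = 0.67). *BAX* was thus not among the 4 at an unadjusted p under 0.05, whereas *PMAIP1* was, at a corrected difference of 1.04 (adjusted p = 0.053). *MCL1*, *BCL2L11* and *BAD* kept their direction and most of the *MCL1* and *BCL2L11* differences remained, whereas little was left of the *BAX* difference. With 1 LA library left, these 4 members kept their signs. Without LA replicate 1 the differences were 0.88 for *MCL1*, 1.21 for *BCL2L11*, -1.35 for *BAX* and -2.33 for *BAD*. Without LA replicate 2 they were 1.57, 1.71, -1.52 and -2.67. With 1 A549 library left, the differences of the 4 members called were larger without A549 replicate 2 than without replicate 1. They were 1.43 and 1.03 for *MCL1*, 2.145 and 0.97 for *BCL2L11*, -2.04 and -0.63 for *BAX*, and -3.14 and -1.56 for *BAD*.

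**Figure D2:**
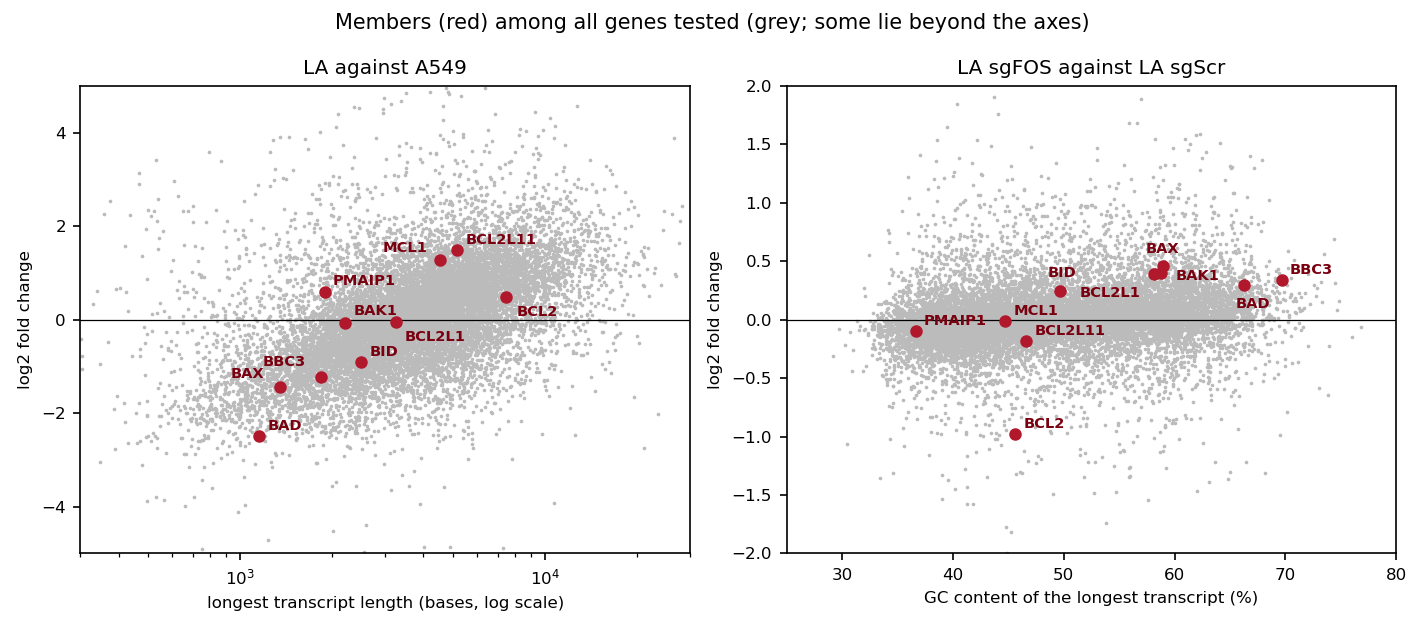
Log2 fold change of every gene tested with a known transcript (grey points) and of the 10 members (red points, named), for LA against A549 by the length of the longest transcript in bases on a log axis (left), and for LA sgFOS against LA sgScr by the GC content of that transcript in percent (right). On the left *BAD* and *BAX* are the shortest members and among the lowest, and on the right the 6 members called higher have the 6 highest GC contents, from 49.7% to 69.7%.

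Around the members, other genes of the pathway moved in both directions in LA. Among 12 genes of the apoptosome and of mitochondrial release, 1 was called higher and 3 lower, namely *APAF1*, the caspase 9 scaffold, at a log2 fold change of 2.18 and, among those lower, *ENDOG* at -1.37 and *DIABLO*, an antagonist of inhibitor of apoptosis proteins, at -1.31. Among 6 inhibitor of apoptosis genes 1 was higher (*BIRC6*, 1.79) and 1 lower (*BIRC5*, which encodes survivin, -1.25). Of 8 tested genes for ubiquitin enzymes that act on *MCL1* or BH3-only proteins, 2 were higher and 1 lower. Those were *USP9X*, a deubiquitinase of *MCL1*, at 1.33, *HUWE1*, a ligase of *MCL1*, at 1.256, and *RNF7* at -1.17. Among the 20 kinases and 14-3-3 proteins that act on *BAD* or BIM, only *SFN* was called, at -1.85. The transcription factors known to act on BH3-only genes gave 4 higher and 0 lower of 16 tested, including *FOS* at 4.41, *JUN* at 2.18 and *ATF3* at 2.15. *BCL2L12* at -2.05 and *BNIP1* at -1.81 were the calls among 7 BCL2-related and BNIP genes, and none of the 5 other tested family members (*BCL2L2*, *BCL2A1*, *BOK*, *BIK* and *BMF*) was called in edgeR's test. With the length and GC correction, 3 of the 16 transcription factors were higher, and the inhibitor of apoptosis list and the kinase list had no call. The ubiquitin enzymes then gave 0 higher and 1 lower, so that neither *USP9X* nor *HUWE1* was called higher, the apoptosome list 1 higher and 2 lower, and the BCL2-related and BNIP genes 0 higher and 1 lower.

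The fusion cells with a scramble guide give a second comparison with A549, which uses the same A549 libraries and so shares their values with the first. *MCL1* rose and *BID* and *BAD* fell, 3 of the 10 members, where 19.8% of 14482 genes were called higher and 21.7% lower. Groups did not overlap for 8 members (69.2% of all genes), and 5 members passed the study's kind of threshold (49.5% of all genes). The medians were 0.02 over the members and 0.02 over all genes.

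*MCL1* read 291.3, 284.0 and 272.8 CPM in LA sgScr, all above the 110.6 CPM of the higher A549 library. Its log2 fold change was 1.55 (SE 0.18, adjusted p = 0.0055). *BID* read 41.8, 41.4 and 42.4 CPM, all below both A549 libraries, and it fell by 0.88 on the log2 scale (SE 0.14, adjusted p = 0.0089). *BAD* read 21.7, 25.7 and 22.3 CPM and fell by 2.43 (SE 0.42, adjusted p = 0.0099). For these 3 genes every LA sgScr library lay outside the range of A549.

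The other members missed the threshold. *BAX* read 137.2, 135.0 and 140.9 CPM, a log2 fold change of -1.12 (SE 0.37, adjusted p = 0.052), and *BCL2L1* 118.1, 120.7 and 118.6 CPM, a log2 fold change of -0.80 (SE 0.28, adjusted p = 0.061). Both were below the 2 A549 libraries, and DESeq2 called both (adjusted p = 0.0055 and 0.018). The length and GC correction left *BAX* at 0.061 (adjusted p = 0.82) and *BCL2L1* at -0.45 (adjusted p = 0.067), and without A549 replicate 1 they were at -0.28 and -0.23. *BCL2L11* at 16.3, 16.8 and 16.0 CPM was above A549 with a difference of 0.67 (SE 0.36, adjusted p = 0.17). *PMAIP1* at 22.1, 18.1 and 21.6 CPM differed by 0.62 (SE 0.27, adjusted p = 0.10). The *BCL2* libraries read 1.76, 2.62 and 1.78 CPM, *BAK1* read 19.3, 20.2 and 23.3 CPM and *BBC3* read 16.7, 15.5 and 14.4 CPM, and for *BAK1* and *BBC3* these overlapped with A549.

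Transcript length went with this comparison too (Spearman correlation 0.541 over 14024 genes). With the length and GC correction 5 members were called, in which *MCL1*, *PMAIP1* and *BBC3* were higher and *BID* and *BAD* lower. Of all genes 3001 were then called higher and 2757 lower. *MCL1*, *BID* and *BAD* were thus called with and without the correction, but the *BAD* difference went from -2.43 to -0.79 with it, and it was -1.46 without A549 replicate 1. *BBC3*, at -0.07 without it, was at 1.13 with it (adjusted p = 0.016), and *PMAIP1* was at 0.93 (adjusted p = 0.0077). Without any 1 LA sgScr library no member was called, with 3 at an unadjusted p under 0.05 each time, and *MCL1* then had log2 fold changes of 1.53 to 1.57 and adjusted p from 0.052 to 0.055. Few genes were called then, with 117 higher and 13 lower without replicate 1. Without replicate 2 or 3 it was 3 higher and 0 lower each time. With 1 library left in the A549 group, *MCL1* was at 1.35 without A549 replicate 1 and at 1.77 without replicate 2. *BID* was then at -0.98 and -0.785, and *BAD* at -1.46 and -3.02.

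The neighbouring lists had more calls here than in LA against A549, as did the table as a whole. Of 16 transcription factors of BH3-only genes 8 were higher and 1 lower, led by *FOS* at 4.33, *JUN* at 3.32 and the forkhead factor *FOXO4* at 1.45. Of 20 kinases and 14-3-3 proteins 6 were higher, including *RPS6KA3* at 1.43 and *YWHAG* at 1.06, and 1 was lower. The ubiquitin enzymes gave 4 higher and 2 lower of 8, with *UBE2F*, which neddylates *CUL5*, at -1.59, *USP9X* at 1.56 and *HUWE1* at 1.39. Among 6 inhibitor of apoptosis genes 3 were higher, namely *BIRC6* at 1.78, *BIRC3* at 1.15 and *XIAP* at 0.75, and 1 was lower. The apoptosome list gave 1 higher (*APAF1*, 2.72) and 5 lower of 12, the latter with *ENDOG* at -1.11 and *DIABLO* at -0.89. *BCL2A1* (-1.42) and *BOK* (-0.86) were the calls among the 5 other tested family members, and the BCL2-related and BNIP genes gave 0 higher and 3 lower of 7, led by *BCL2L12* at -1.53. After the length and GC correction the transcription factors gave 9 higher and 0 lower, the kinases and 14-3-3 proteins 10 and 2, the ubiquitin enzymes 2 and 2, and the inhibitor of apoptosis genes 2 and 1. The apoptosome list then turned to 4 higher and 2 lower, and the calls of lower *BCL2A1* and *BOK* were lost, with 1 of the 5 other family members, a pro-survival gene, called higher. The BCL2-related and BNIP genes again gave 0 higher and 3 lower.

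Between LA sgScr and LA, both fusion cells, 2 members differed. The labels do not say whether these groups were cultured or sequenced together, so the guide and such a difference cannot be told apart. *BCL2L11* fell by 0.87 on the log2 scale in LA sgScr (SE 0.15, adjusted p = 0.014) and *BBC3* rose by 1.09 (SE 0.14, adjusted p = 0.0062). Of 14521 genes, 10.6% were called higher and 12.3% lower. Groups did not overlap for 5 members (56.7% of all genes) and 3 passed the study's kind of threshold (25.9%). *BBC3* read 6.999 and 7.32 CPM in LA and 14.4 to 16.7 in LA sgScr, which overlaps with the A549 libraries, and *BCL2L11* read 33.9 and 24.9 CPM in LA and 16.0 to 16.8 in LA sgScr. *BCL2L1* (-0.80, SE 0.26, adjusted p = 0.070) and *BAX* (0.25, SE 0.10, adjusted p = 0.11) were not called, and the other 6 members lay closer to 0, with *MCL1* at 0.23. With the length and GC correction *BCL2L1* (-0.70, adjusted p = 0.036) and *BAX* (0.26, adjusted p = 0.036) were called besides *BCL2L11* and *BBC3*. Of all genes 2121 were then called higher and 2044 lower. Before the correction the medians of members and of all genes were both -0.02. Without LA sgScr replicate 1 or 2, 0 members were called, with 2 at an unadjusted p under 0.05 in each case, and without replicate 3 *BBC3* alone was called. Over all genes, leaving out these 3 replicates in turn gave 222, 203 and 171 called higher and 310, 252 and 218 lower. Among the lists, *SFN* at 1.08 led 5 higher and 0 lower of 20 kinases and 14-3-3 proteins. *JUN* at 1.09, *ATF3* at -1.01 and *CEBPB* at 0.91 led 3 higher and 2 lower of 17 transcription factors. *BCL2A1* at -1.58 was the one call among 5 other family members. The apoptosome list gave 2 higher (*AIFM1* 0.52, *DIABLO* 0.365) and 0 lower of 12, and the inhibitor of apoptosis genes 1 higher (*BIRC3*, 0.75) and 0 lower of 6. Of 8 ubiquitin enzymes *UBE2F* was lower (-0.58), and of 7 BCL2-related and BNIP genes *BCL2L12* was higher (0.46). With the correction the apoptosome list gave 6 higher and 0 lower, and the kinases and 14-3-3 proteins 8 and 0.

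**Figure D3:**
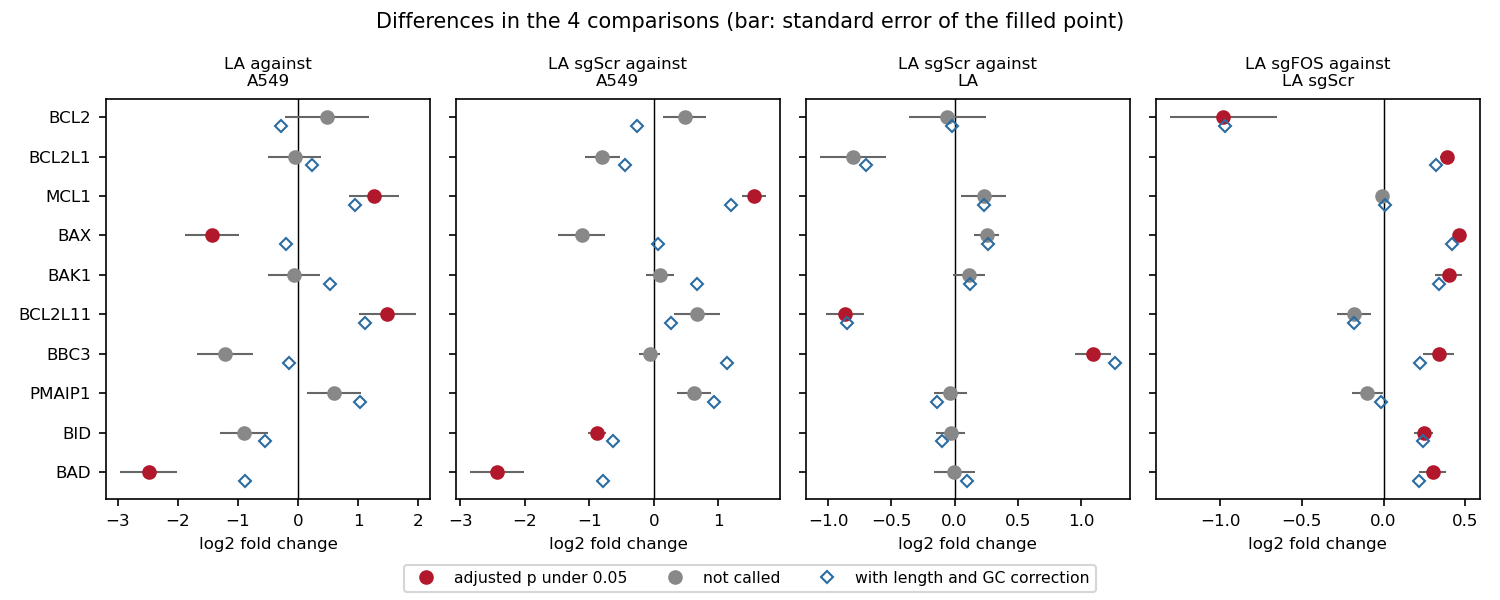
Log2 fold change of each member in the 4 comparisons (horizontal axes, each with its own range), with filled points for edgeR's fit (red where the adjusted p is under 0.05) and bars for its standard error, and open diamonds for the value with the length and GC correction. *BAX* moves from -1.43 to -0.20 with the correction in LA against A549. In LA sgFOS against LA sgScr the median over the members moves from 0.27 to 0.22 with it, and *BBC3* is then no longer called.

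The last comparison sets fusion cells with *FOS* guides against those with a scramble guide. Loss of *FOS* and other effects of these guides, such as the cutting itself, cannot be told apart in it. In it 7 of the 10 members were called, 6 higher and 1 lower, where 12.2% of 14196 genes were called higher and 10.5% lower. *BAX*, *BAK1*, *BCL2L1*, *BBC3*, *BAD* and *BID* rose and *BCL2* fell, while *MCL1*, *PMAIP1* and *BCL2L11* were not called. Groups did not overlap for 8 members (48.5% of all genes). The changes were small, since only *BCL2* passed the study's kind of threshold (5.76% of all genes). The median log2 fold change was 0.27 over the members and 0.00 over all genes. The libraries of these 2 groups were the closest of the series, with a biological coefficient of variation of 0.0296, against 0.329 for LA and A549.

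Both pore-forming genes rose. *BAX* read 137.2, 135.0 and 140.9 CPM with the scramble guide and 185.7 and 192.4 with *FOS* guides, a log2 fold change of 0.46 (SE 0.04, adjusted p = 4.0e-12). *BAK1* read 19.3, 20.2 and 23.3 CPM and then 28.6 and 26.2, a log2 fold change of 0.40 (SE 0.09, adjusted p = 5.2e-04). Neither gene had an overlap between the groups.

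Of the pro-survival genes, *BCL2L1* rose from 118.1, 120.7 and 118.6 CPM to 160.7 and 150.1, a log2 fold change of 0.39 (SE 0.04, adjusted p = 1.0e-09). *MCL1* read 291.3, 284.0 and 272.8 CPM against 280.1 and 279.1, and the difference was -0.01 (SE 0.04, adjusted p = 0.85). *BCL2* read 1.76, 2.62 and 1.78 CPM against 0.881 and 1.20 and fell by 0.98 on the log2 scale (SE 0.33, adjusted p = 0.026). The *BCL2* call rests on 31 to 54 and 13 to 18 raw counts, and it was lost without LA sgScr replicate 2 (-0.75, adjusted p = 0.15), without LA sgFOS replicate 1 (-0.78, adjusted p = 0.24), without LA sgFOS replicate 2 (-1.22, adjusted p = 0.066) and in DESeq2 (adjusted p = 0.12). The 3 pro-survival genes therefore took 3 courses, with 1 higher, 1 lower at low counts and 1 not called.

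The BH3-only genes that rose were *BBC3*, from 16.7, 15.5 and 14.4 CPM to 19.8 and 19.4 (log2 fold change 0.34, SE 0.09, adjusted p = 0.0078), *BAD*, from 21.7, 25.7 and 22.3 CPM to 29.3 and 27.8 (0.30, SE 0.08, adjusted p = 0.0057), and *BID*, from 41.8, 41.4 and 42.4 CPM to 50.2 and 48.6 (0.24, SE 0.06, adjusted p = 0.0017). Each had both LA sgFOS libraries above all 3 LA sgScr libraries. *BCL2L11* read 16.3, 16.8 and 16.0 CPM against 15.7 and 13.1, a difference of -0.18 (SE 0.10, adjusted p = 0.22). *PMAIP1* read 22.1, 18.1 and 21.6 CPM against 21.1 and 17.3, a difference of -0.10 (SE 0.10, adjusted p = 0.51). BIM and NOXA transcripts were thus not called, unlike those of PUMA, *BAD* and *BID*.

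GC content moved with the comparison. The Spearman correlation of the log2 fold change with GC content was 0.260 over 13768 genes, and that with length was -0.019. The 6 members called higher have transcripts of 49.7% to 69.7% GC and the other 4 of 36.7% to 46.6%. Of the 6284 genes tested at 49.7% GC or more, 18.7% were called higher, and of the 6113 at 46.6% or less, 6.51%. With the length and GC correction *BAX*, *BAK1*, *BCL2L1*, *BID* and *BAD* were still called higher and *BCL2* lower, whereas *BBC3* was at 0.22 (adjusted p = 0.094). Of all genes 1532 were then called higher and 1394 lower. With 1 LA sgFOS library left, the median log2 fold change over the members was 0.24 without replicate 1 and 0.30 without replicate 2. Over all genes it was -0.004 and -0.005. In a fit over all 9 libraries, whose spread included that of A549 and LA, 0 members and 0 genes were called in edgeR's test, with 444 genes at an unadjusted p under 0.05, whereas DESeq2 on the 5 libraries called 1075 genes higher and 887 lower and 5 members.

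The remaining family members tested moved likewise in part. *BCL2A1*, a pro-survival gene, was higher at a log2 fold change of 1.01 (adjusted p = 5.1e-04), *BIK*, a BH3-only gene, at 0.70 (adjusted p = 0.046) and *BOK*, the third pore-forming gene, at 0.29 (adjusted p = 0.0033, not called with the length and GC correction, 0.18), and *BCL2L2* and *BMF* were not called. Downstream of the mitochondrion, 11 of 12 genes of the apoptosome and of mitochondrial release were not called, and *VDAC2*, which holds BAK at the membrane, fell by 0.16. Among 6 inhibitor of apoptosis genes *BIRC3* was higher (0.21) and *BIRC5* lower (-0.22). The ubiquitin enzymes had 0 higher and 2 lower of 8, namely *USP9X* at -0.21 and *CUL5* at -0.16, and the kinases and 14-3-3 proteins 2 higher and 4 lower of 20, led by *SFN* at 0.55 and *PIM1* at -0.48. Of 16 transcription factors of BH3-only genes 1 was higher (*STAT3*, 0.35) and 4 lower, including *FOS* at -1.48 and *CEBPB* at -0.23, while *JUN*, the partner of *FOS* in AP-1, was at -0.03 (adjusted p = 0.66). *BCL2L13* (0.15) was called higher and *BCL2L12* (-0.17) and *BNIP3L* (-0.13) lower among 7 BCL2-related and BNIP genes. This list gave 0 higher and 1 lower with the length and GC correction.

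LA against A549 and LA sgFOS against LA sgScr share no library, and each of the 10 members had the opposite sign in them, where 49.8% of 13877 genes did. *BAX*, for example, was at -1.43 and 0.46, *BAD* at -2.48 and 0.30, and *BCL2* at 0.48 and -0.98. Only *BAX* and *BAD* were called in both. With the length and GC correction 6 of the 10 members had opposite signs (46.0% of genes). The count of 10 includes differences near 0, of *MCL1* (-0.01) and *PMAIP1* (-0.10) in the second comparison and of *BCL2L1* (-0.06) and *BAK1* (-0.07) in the first.

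A ratio of 2 genes within a library does not depend on the scaling of that library, but length and GC trends that differ between libraries remain in it. The transcripts of *MCL1* and *BCL2L1* have 4550 and 3257 bases and 44.7% and 58.2% GC. Those of *BAX* and *BAK1* have 1358 and 2212 bases. The part of these trends in the ratios was not tested. The pairs were chosen after the values were seen and carry no test. The ratio of *MCL1* to *BCL2L1* counts was 0.298 and 0.794 in A549, 2.09 and 0.688 in LA, 2.47, 2.35 and 2.30 in LA sgScr, and 1.74 and 1.86 in LA sgFOS. It was above 1 in all 5 libraries with guides and below 1 in both A549 libraries, and the 2 LA libraries lay on either side. The *BAX* to *BAK1* ratio was 27.1 in A549 replicate 1 and 5.47 to 7.36 in the other 8 libraries, including 7.25 in A549 replicate 2. The ratio of *BAX* to *BCL2L1* was 1.57 and 1.20 in A549 and 0.454 to 1.28 in the other 7 libraries.

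**Figure D4:**
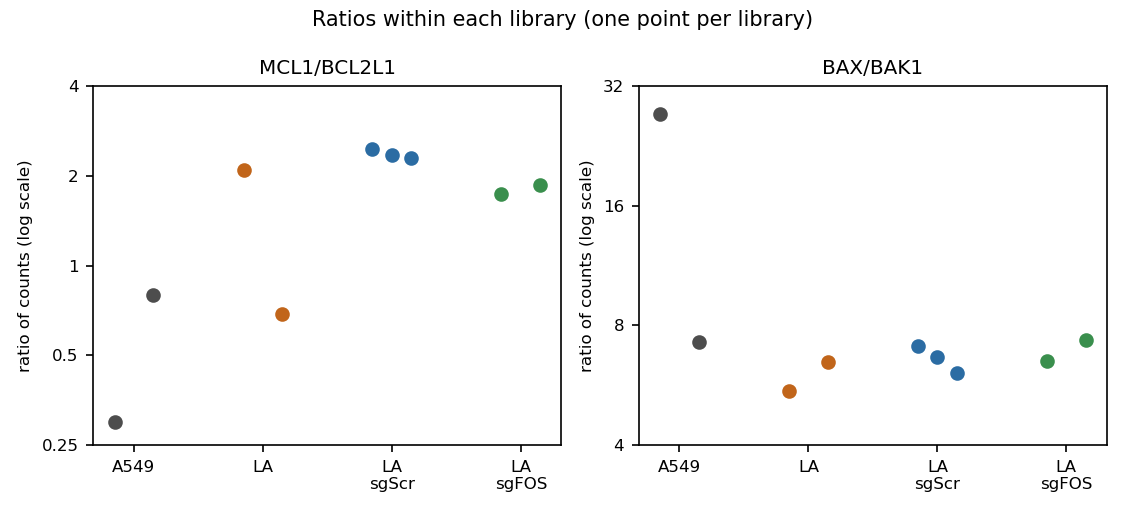
Ratio of *MCL1* to *BCL2L1* counts (left) and of *BAX* to *BAK1* counts (right) in each library, on log axes, with 1 point per library. The *MCL1* to *BCL2L1* ratio lies below 1 in both A549 libraries and above 1 in all LA sgScr and LA sgFOS libraries, and A549 replicate 1 has the one *BAX* to *BAK1* ratio outside 5.47 to 7.36.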

How the data were processed

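RNA-seq of 9 A549 libraries was analysed from raw read counts per gene that the authors deposited as whole numbers without normalization. Per the methods and the submitters' notes, stranded mRNA libraries were sequenced paired-end and aligned to hg19 with STAR 2.7.10b, and DESeq2 1.26.0 was used for differential expression. The counting program, its annotation and strand setting are not given in the sources used here. The table holds 26364 names, of which 28 look like dates, and all per-sample columns were used.

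Each comparison was fitted in edgeR 4.0.16 (R 4.3.3) on the libraries of its 2 groups, with TMM scaling, filterByExpr and glmQLFTest, and p-values were adjusted over all genes tested and called under 0.05. All 10 members passed the filter in each comparison. Standard errors were derived from the quasi-likelihood F. For the length and GC correction, loess trends (span 0.5) on the length and GC content of the longest GENCODE transcript (GRCh37) entered as offsets. The fit was tested on simulated data. DESeq2 1.42.0, other scalings, filters, thresholds, a replicate block and leaving out each library were tried as alternatives. The members and gene lists were chosen with earlier results of these data known. All members were named with values in every library. Genes named as called in a list were among the up to 3 per comparison with the largest absolute log2 fold change and no overlap between groups, besides *FOS* and *ALK*. Not every such gene was named. Items withheld from this text are not reported here. Genes named as not called were chosen after their values were seen.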

Additional observations from a re-analysis of the deposited data

How the results depend on the processing

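The number of members called depended on the setting, and so did the number of all genes called, given in brackets as higher and lower. For LA against A549 (4 members called, genes 1380 and 1434) it was 1 at an adjusted p under 0.01 (554 and 578). With the replicate block it was 1, *BAD* (791 and 728). It was 0 with the length and GC correction (834 and 915) and 0 with both (847 and 922), and it also changed without single replicates. For LA sgScr against A549 (3 called) it was 5 at the study's kind of threshold, 5 in DESeq2, 5 with upper quartile scaling, 5 with the length and GC correction, 5 with that and the replicate block, and 0 to 8 without single replicates. For LA sgScr against LA (2 members called, genes 1534 and 1793) it was 1 at an adjusted p under 0.01 (379 and 436) and 1 over all 9 libraries (569 and 867). It was 1 with the replicate block (511 and 719), 1 with the block and the correction (520 and 599) and 4 with the correction alone (2121 and 2044). Without single LA sgScr replicates it was 0 to 1 (171 to 222 and 218 to 310). For LA sgFOS against LA sgScr (7 members called, genes 1731 and 1490) it was 1 at the study's kind of threshold (530 and 288) and 0 over all 9 libraries (0 and 0). It was 7 with the replicate block (1670 and 1480), and it also changed without single replicates. Library size alone moved the median of all genes in LA against A549 from 0.04 to 0.33 and the share of calls that were higher from 49.0% to 70.1%, and in LA sgScr against A549 the median from 0.02 to 0.20.

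Deviations of same-numbered libraries of the compared groups correlated at -0.269, 0.045, -0.016 and -0.078. The replicate differences of A549 and LA went with GC content in opposite directions (0.651 and -0.435). These correlations therefore cannot show whether same-numbered libraries were prepared together. A crossed block added after seeing the data called 6 members in LA against A549, beside 1977 genes higher and 1901 lower. Of 43 reversed signs, 41 belonged to values not called under either setting, and the others to *BBC3* in LA sgScr against A549 with the correction. The cause was not tested. In LA against A549, library size alone gave 0.28 for *BCL2L1* and 0.20 for *BAK1*. The correction gave -0.29 for *BCL2*, 0.23 for *BCL2L1* and 0.52 for *BAK1*, and with the block -0.26, 0.22 and 0.61. In LA sgScr against A549, library size alone gave 0.13 for *BBC3*, the correction gave -0.26 for *BCL2*, 0.061 for *BAX* and 1.13 for *BBC3*, and with the block -0.18, 0.087 and 1.22. In LA sgScr against LA, *BAD* was 0.005 in DESeq2, 0.005 with its size factors, 0.029 without a filter, 0.02 over all libraries, 0.037 with the block, 0.10 with the correction and 0.13 with both, and *BCL2* was 0.015 with the block and 0.049 with both. In LA sgFOS against LA sgScr, *MCL1* was 0.006 with the correction and *PMAIP1* 0.028 with the correction and the block. Without single replicates the ranges that crossed 0 were -0.58 to 0.48 for *BCL2L1* and -0.35 to 0.15 for *BAK1* in LA against A549, -0.15 to 0.37 for *BAK1* and -0.21 to 0.083 for *BBC3* in LA sgScr against A549, -0.28 to 0.12 for *BCL2*, -0.084 to 0.053 for *PMAIP1*, -0.17 to 0.14 for *BID*, -0.049 to 0.60 for *MCL1* and -0.17 to 0.22 for *BAD* in LA sgScr against LA, and -0.037 to 0.009 for *MCL1* and -0.25 to 0.035 for *PMAIP1* in LA sgFOS against LA sgScr. With 1 library left in a group, its spread is assumed to be that of the other group. *BCL2* has 13 to 54 counts per library, which limits its precision.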
